A study of Mus musculus with 44 samples.

Results

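The mRNA of the 6C3 stroma was compared with that of the other downstream skeletal populations of young mouse bone. 6C3 is a sorted fraction of non-haematopoietic cells from the long bones, taken with the growth plates, and the comparison used the 2 wild-type input libraries of 6C3 and the 8 wild-type input libraries of PCP, THY, BLSP and HEC, 2 of each. These are 10 of the 44 libraries of the study, chosen by their labels alone. All 10 came from C57Bl6 mice at postnatal day 3, of both sexes, without treatment. All 10 carry the genotype label wild type. The study uses that name for Mettl3 fl/fl mice without Cre in its knockout comparison, and whether the mice used here carried the floxed allele is not given in the sources used here. Input means RNA taken without the immunoprecipitation of N6-methyladenosine (m6A) that the rest of the study is about. In the study's gating all of these cells were negative for CD45, Ter119 and Tie2 and positive for CD51. Within that gate 6C3 cells were Thy-negative, 6C3-positive and CD105-positive, and HEC (hepatic leukemia factor expressing cells) differed from them only in being CD105-negative. The other populations were Thy-positive, namely PCP (pro-chondrogenic progenitors, CD105-positive and CD200-positive), THY (CD105-positive and CD200-negative) and BLSP (B-cell lymphocyte stromal progenitors, negative for 6C3 and CD105).

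The 6C3 antigen is aminopeptidase A, a zinc peptidase of the cell surface that trims angiotensin and was first known as the BP-1 antigen of early B cells and of stromal lines that support them. In the skeletal stem cell scheme, the 6C3 fraction is a stromal branch placed downstream of the bone, cartilage and stroma progenitors. Prg4 encodes lubricin, the lubricating proteoglycan that cells of the joint surface and the synovial lining secrete. Endoglin (CD105) is a co-receptor of the transforming growth factor beta family, and Thy1 is a small surface glycoprotein of many fibroblasts.

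The 10 libraries held 19795666 to 44046651 counts, and 20588 to 26442 genes had at least 1 count. Levels are given as CPM, the counts of a gene relative to the library's total after scaling by TMM factors, and 19604 genes passed the filter on low counts. Mitochondrial transcripts took 0.287% to 1.41% of the counts and were lowest in the 2 libraries of 6C3 and in HEC replicate 2 and PCP replicate 2. The 2 libraries of 6C3 were further apart than those of any other population: 25.2% of genes differed more than 2-fold between them, against 14.7% to 21.0% in the other 4 populations. Over genes, which do not stand for replicates, the log2 CPM of 6C3 replicate 2 correlated with 6C3 replicate 1 at 0.957 and with the 2 HEC libraries at 0.967 and 0.972.

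Enpep, which encodes the 6C3 antigen, checked the sort (ENSMUSG00000028024.14, chromosome 3 of GRCm38 from 129269175 to 129332720). It stood at 46.1 and 42.8 CPM in 6C3, at 57.7 and 54.98 CPM in HEC and at 3.89 to 9.08 CPM in the 6 libraries of PCP, THY and BLSP. The 6C3 and HEC libraries thus lay well above the Thy-positive ones, and HEC, which was sorted with the same antigen, lay slightly above 6C3. The difference between 6C3 and the mean of the other 4 populations was 2.21 ± 0.20 (log2 fold change ± SE; edgeR quasi-likelihood test, adjusted p = 2.6e-05) and that between 6C3 and HEC was −0.34 ± 0.28 (adjusted p = 0.68). Since the antigen was used to sort the cells, these values describe the gate and are not a finding.

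Thy1 and Eng were high in the populations sorted as positive for them. Thy1 was at 0.0636 and 0.0864 CPM in 6C3, 0.448 and 0.130 CPM in HEC and 17.97 to 35.5 CPM in the Thy-positive libraries. Eng, the gene of CD105, was at 112 and 116 CPM in 6C3, 33.01 and 33.1 CPM in HEC, 125 and 98.8 CPM in PCP, 91.7 and 107 CPM in THY and 18.2 and 26.3 CPM in BLSP, so that the 3 populations sorted as CD105-positive were the high ones. The Eng difference from HEC was 1.79 ± 0.23 on the log2 scale (edgeR, adjusted p = 0.0071). Itgav, the gene of CD51, was at 64.2 and 119 CPM in 6C3 and 81.7 to 115 CPM in the other 8 libraries. Cd200 was at 53.5 and 64.96 CPM in 6C3, near the 61.2 and 69.5 CPM of HEC and between the 8.48 to 9.42 CPM of THY and the 88.1 to 112 CPM of PCP. Tek, the gene of Tie2, for which all populations were sorted as negative, had no count in either 6C3 library and was at 1.56 to 8.63 CPM in the Thy-positive libraries. The mean of the other 8 libraries, HEC included, was at least 93.0-fold higher against a floor of 3 counts over both 6C3 libraries. In the m6A immunoprecipitation (IP) libraries Tek was as low in HEC as in 6C3, with means of 0.421 and 0.565 CPM, against 2.81 to 9.15 CPM in the Thy-positive populations. Ptprc, the gene of CD45, stayed below 1 CPM in all 10 libraries.

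**Figure D1:**
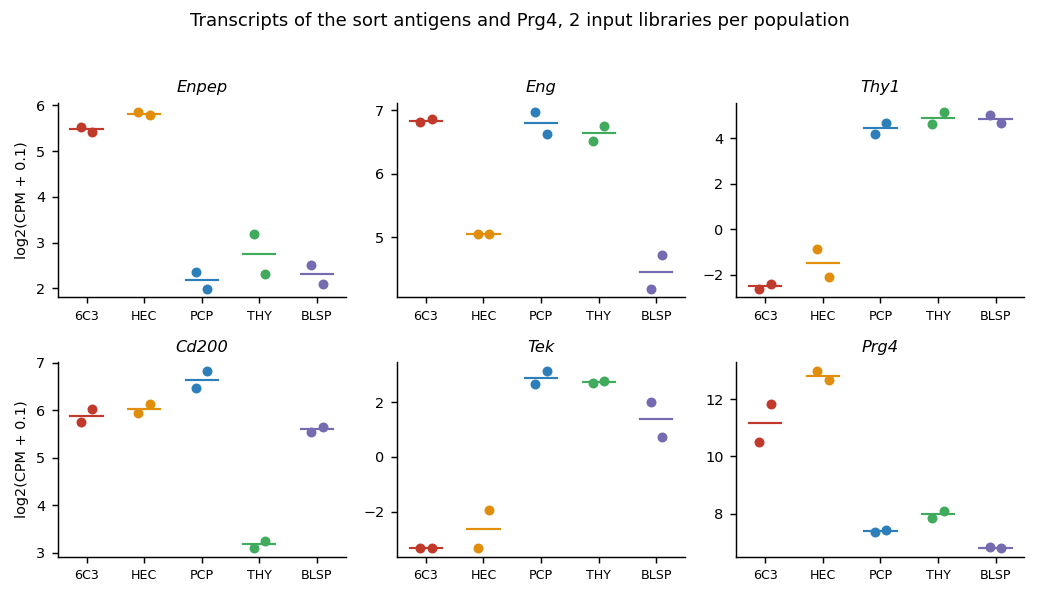
CPM of 5 sort antigens and Prg4 as log2(CPM + 0.1) in each of 2 input libraries (points) of the 5 populations, with the mean of the 2 log values as a line. Enpep is high in 6C3 and HEC, Eng is high in 6C3, PCP and THY, Thy1 and Tek are high in the Thy-positive populations, and the Prg4 values of the 2 6C3 libraries lie between those of HEC and of the Thy-positive populations.

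Prg4, the second marker, was not specific to 6C3. It stood at 1456 and 3610.4 CPM in 6C3, 8030.1 and 6429 CPM in HEC and 111 to 272 CPM in the Thy-positive libraries (ENSMUSG00000006014.16, chromosome 1 of GRCm38 from 150449412 to 150466165). The levels were ordered HEC, 6C3, THY, PCP and BLSP with no overlap between the libraries of neighbouring populations, and the 2 6C3 libraries differed from each other more than those of any other population. Prg4 was higher in 6C3 than in the mean of the other 4 populations by 2.56 ± 0.22 (edgeR, adjusted p = 2.1e-05) and than in the mean of PCP, THY and BLSP by 3.92 ± 0.23 (adjusted p = 4.6e-07). Against HEC the difference was −1.51 ± 0.32 (adjusted p = 0.098), and it passed the threshold with DESeq2 (−1.53, adjusted p = 0.00078). Without 6C3 replicate 2 the Prg4 difference from HEC was −2.31, and without replicate 1 it was −0.99. Of the 4280 exonic bases of Prg4, 204 overlap exons of Tpr on the opposite strand, and reads there could not be assigned by strand.

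The promoter of Enpep is shown because its transcript follows the gate, and those of Tspan15 and Clic5 because both 6C3 libraries stood above all 8 others for these genes. Each runs from 250 bases before to 50 after a start site in RefSeq, 5′ to 3′ on the strand of the gene. Capitals mark matches, on either strand, to 5 motifs that were searched: the AP-1 element TGANTCA, the Runx element TGTGGT, the Sox element AACAAT, the GC box GGGCGG and the TATA box TATAAA.
Enpep (GRCm38.p6, chr3:129332700-129332999, minus strand): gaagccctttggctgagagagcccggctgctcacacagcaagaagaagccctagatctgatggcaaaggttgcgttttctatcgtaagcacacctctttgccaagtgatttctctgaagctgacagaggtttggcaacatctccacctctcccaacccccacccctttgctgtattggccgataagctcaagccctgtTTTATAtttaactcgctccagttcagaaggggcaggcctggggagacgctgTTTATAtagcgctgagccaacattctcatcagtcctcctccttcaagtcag
Tspan15 (GRCm38.p6, chr10:62231169-62231468, minus strand): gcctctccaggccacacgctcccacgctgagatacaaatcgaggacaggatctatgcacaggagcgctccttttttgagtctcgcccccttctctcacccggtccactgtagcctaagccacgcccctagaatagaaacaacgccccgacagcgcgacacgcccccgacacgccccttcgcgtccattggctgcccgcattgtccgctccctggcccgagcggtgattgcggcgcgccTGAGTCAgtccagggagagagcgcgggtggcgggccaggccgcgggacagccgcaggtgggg
Clic5 (GRCm38.p6, chr17:44188322-44188621, plus strand): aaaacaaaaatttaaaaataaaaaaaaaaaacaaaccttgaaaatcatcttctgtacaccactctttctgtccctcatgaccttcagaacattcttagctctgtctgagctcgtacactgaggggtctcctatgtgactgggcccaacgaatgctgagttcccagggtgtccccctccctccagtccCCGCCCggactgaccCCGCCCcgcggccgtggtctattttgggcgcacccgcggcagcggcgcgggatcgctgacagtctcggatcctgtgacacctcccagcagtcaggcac
The Enpep promoter held 2 TATA box matches, the Tspan15 promoter 1 match to the AP-1 element and the Clic5 promoter 2 GC boxes. Among 32851 RefSeq promoters of this length, 13.6% held the TATA box, 7.81% the AP-1 element, 35.7% the GC box, 16.8% the Runx element and 10.7% the Sox element. RefSeq promoter sequences were matched for 10 of the 14 genes named as higher below, and a match is a description of letters only.

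Against the mean of the other 4 populations, 760 genes were higher in 6C3 (3.88% of 19604 tested) and 541 were lower (2.76%; edgeR quasi-likelihood test, adjusted p below 0.05), 6.64% of genes in all. Without 6C3 replicate 1 these counts were 454 and 274, and without replicate 2 they were 1237 and 1318. Of the 760 higher genes, 361 were also called without replicate 1 and 609 without replicate 2, and of the 541 lower genes 238 and 419 were. When the reads were scaled by library size alone, 421 genes were higher and 1013 lower, and the median log2 fold change of all genes was −0.23 in place of −0.02. The calls used the spread between the 2 libraries of each population. When the 8 other libraries were treated as 1 group with no term for population, edgeR called no gene at an adjusted p below 0.05 (952 higher and 1377 lower at an unadjusted p below 0.05), with Enpep at an adjusted p of 0.59.

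6C3 was closest to HEC. In the pairwise comparisons 27 genes were higher in 6C3 than in HEC (0.138% of those tested) and 2 were lower (0.0102%; 1260 and 855 at an unadjusted p below 0.05), against 1817 that differed in either direction from PCP (9.27%), 1520 from THY (7.75%) and 1754 from BLSP (8.95%). By direction, 759 genes were higher (3.87%) and 1058 lower (5.4%) in 6C3 than in PCP. Against THY, 802 were higher (4.09%) and 718 lower (3.66%), and against BLSP 904 were higher (4.61%) and 850 lower (4.34%). Against the mean of PCP, THY and BLSP, 1308 genes were higher (6.67%) and 1097 lower (5.6%). DESeq2 called 221 genes higher and 74 lower against HEC. Without 6C3 replicate 1 the counts against HEC were 14 higher and 0 lower (edgeR; 752 and 357 at an unadjusted p below 0.05), and without replicate 2 they were 720 and 680. Leaving out HEC replicate 2 left 1 gene higher in 6C3. Of the 760 genes higher in 6C3 than in the mean of the other 4, the highest mean level lay in 6C3 for 467 and in HEC for 283, and in PCP, THY or BLSP for 10. For comparison, 6C3 had the highest of the 5 means for 19.5% of all genes tested and HEC for 20.9%.

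**Figure D2:**
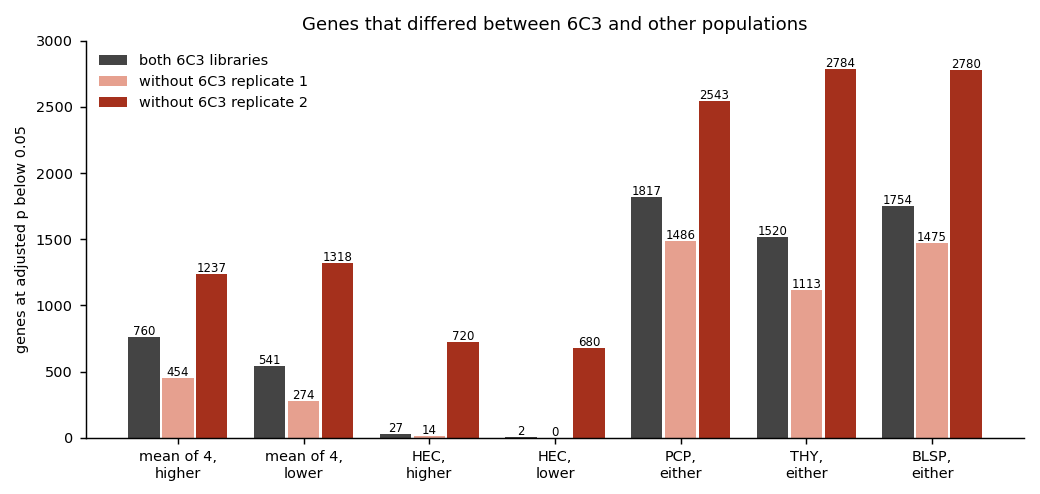
Number of genes at an adjusted p below 0.05 (edgeR) for 6C3 against the mean of the other 4 populations and against HEC, by direction, and against PCP, THY and BLSP in either direction. Bars give the counts with both 6C3 libraries and with each left out, and leaving out 6C3 replicate 2 raised every count (from 27 to 720 for genes higher than in HEC).

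Only 2 genes, Rab37 and Tspan15, were higher in 6C3 than in each of the other 4 populations (0.0102% of genes tested; 139 genes by an unadjusted p below 0.05 and a log2 fold change beyond 0.5, and 13 with DESeq2). Rab37, a small GTPase of secretory vesicles, stood at 83.98 and 58.8 CPM in 6C3, 26.8 and 22.1 CPM in THY, 8.06 and 8.45 CPM in HEC, 3.55 and 3.54 CPM in PCP and 2.12 and 2.49 CPM in BLSP (ENSMUSG00000020732.13, chromosome 11 of GRCm38 from 115091431 to 115162236). Both 6C3 libraries lay above all others, and THY was the next population. The difference from HEC was 3.11 ± 0.26 (edgeR, adjusted p = 0.00022) and that from THY 1.55 ± 0.24 (adjusted p = 0.0011). Tspan15, a tetraspanin that directs the sheddase ADAM10 to some of its substrates, stood at 86.3 and 102 CPM in 6C3 and at 13.1 to 42.3 CPM in the other 8 libraries (ENSMUSG00000037031.10, chromosome 10 of GRCm38 from 62185396 to 62231251). The Tspan15 difference was 1.68 ± 0.27 from HEC (edgeR, adjusted p = 0.032) and 1.23 ± 0.27 from BLSP (adjusted p = 0.011). Rab37 met this rule in 17 of 18 fits, under the alternative settings included, and Tspan15 in 10. No 6C3 library overlapped another population for 206 of the 760 higher genes, against 3.3% of all genes tested with both 6C3 libraries above the other 8. The calls used the same libraries, so a larger share among called genes is built in.

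Among those 206, the 14 with the widest gap were ranked, after predicted genes were set aside and with a mean of at least 5 CPM in 6C3. Calb2, the gene of the calcium buffer calretinin, had the widest gap and stood at 12.7 and 15.4 CPM in 6C3 and 0 to 3.40 CPM in the other 8 libraries (log2 fold change 4.33 ± 0.51, edgeR, adjusted p = 0.00021). Secreted proteins among the 14 included the serine protease Htra4 and the lipid-binding protein Bpifb1. Htra4 stood at 56.3 and 66.5 CPM in 6C3, 29.2 and 29.4 CPM in HEC and 2.68 to 10.3 CPM in the Thy-positive libraries, and 792 of its 2404 exonic bases overlap a gene on the opposite strand. Bpifb1 stood at 86.6 and 48.03 CPM in 6C3, 26.1 and 28.5 CPM in HEC and 2.12 to 9.77 CPM in the Thy-positive libraries. For both genes HEC came second and the Thy-positive populations were far lower.

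Bmpr1b, a type I receptor for bone morphogenetic proteins, stood at 20.01 and 16.01 CPM in 6C3 and 5.43 to 10.9 CPM elsewhere (log2 fold change 1.21 ± 0.21, edgeR, adjusted p = 0.0033). Col22a1, a collagen of tissue junctions such as that of muscle and tendon, stood at 34.2 and 51.9 CPM in 6C3 and 7.82 to 22.8 CPM elsewhere. Clic5, a chloride intracellular channel protein of the joint lining list below, stood at 7.22 and 12.96 CPM in 6C3 and 0.272 to 3.71 CPM elsewhere. In each of these the lower 6C3 library was above the highest of the other 8, as the ranking required. Prkcb, a protein kinase C, stood at 7.95 and 10.4 CPM in 6C3 and 1.11 to 5.21 CPM elsewhere. The remaining 5, Tmem117, Mbnl3, Map7, Ccdc85c and Acp5, had log2 fold changes of 0.76 (Acp5) to 1.57 (Ccdc85c). The calls of Mbnl3, Map7 and Ccdc85c were lost without 6C3 replicate 1. Acp5, the tartrate-resistant acid phosphatase that is best known from osteoclasts, stood at 19.6 and 18.6 CPM in 6C3 and 8.51 to 13.6 CPM elsewhere and lost its call under 9 of 18 alternatives. With the exceptions of Rab37 and Tspan15, none of the 14 passed the threshold against HEC alone, where their adjusted p ran from 0.11 (Calb2) to 0.36 (Acp5).

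**Figure D3:**
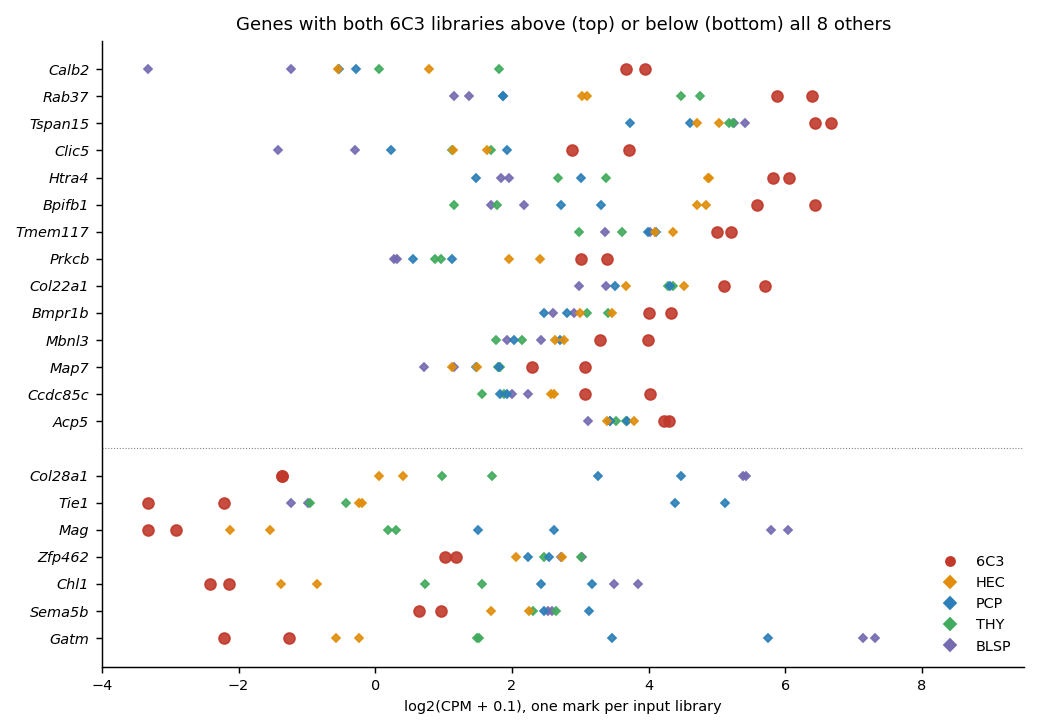
Level as log2(CPM + 0.1) in each of the 10 input libraries for the 14 genes named as higher (top) and 7 of the 8 ranked as lower (bottom) in 6C3. Circles are the 2 6C3 libraries and diamonds the 8 others; by the mean of its 2 libraries HEC is the nearest population for Htra4, Bpifb1, Tmem117, Prkcb, Mbnl3, Ccdc85c and Acp5 among the higher genes and for Col28a1, Mag, Chl1, Sema5b and Gatm among the lower.

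The genes that separated 6C3 from HEC, its neighbour in the gate, were few. F13a1, the A subunit of coagulation factor XIII, stood at 161 and 129 CPM in 6C3, 26.6 and 32.3 CPM in HEC and 125 and 119 CPM in THY, with THY the next population below 6C3 (6C3 minus HEC 2.30 ± 0.26, edgeR, adjusted p = 0.0033). Cadm3, an adhesion molecule, was at 11.4 and 6.33 CPM in 6C3, 1.47 and 0.712 CPM in HEC and 18.2 to 87.98 CPM in the Thy-positive libraries. Serpina3g, a serine protease inhibitor of a family of close paralogs that can share reads, was at 8.78 and 6.25 CPM in 6C3, 1.02 and 0.583 CPM in HEC and 56.2 and 20.7 CPM in PCP. Both of these genes were higher in 6C3 than in HEC and lower there than in both PCP libraries. Ambn, an enamel matrix gene, had 42 counts in 6C3 (0.954 and 0.346 CPM) and none in HEC, a mean at least 12.0-fold higher against a floor of 3 counts over both HEC libraries, while THY stood at 25.6 and 18.2 CPM. The calls of Ambn and Serpina3g against HEC were lost under 7 and 4 of 18 alternatives. The CD105 gene Eng and the niche chemokine Cxcl12 were also among the 27 genes higher in 6C3 than in HEC. Cxcl12, which holds blood cell progenitors in the marrow, stood at 479 and 439 CPM in 6C3, 118 and 110.5 CPM in HEC, 186 and 149.7 CPM in THY, 237 and 387 CPM in BLSP and 2268 and 1079 CPM in PCP (6C3 minus HEC 2.004 ± 0.32, adjusted p = 0.032). Cilp was among the genes lower in 6C3 than in HEC. Cilp, a protein of the intermediate layer of cartilage, stood at 792 and 1112 CPM in 6C3 and 2276 and 2844 CPM in HEC (−1.43 ± 0.23, edgeR, adjusted p = 0.032), with the Thy-positive libraries lower still at 108 to 547 CPM.

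Of 16 listed genes of the articular surface and synovial lining, 7 were higher in 6C3 than in the mean of the other 4 populations (3.88% of all genes were), 9 did not pass the test and none was lower, and the list's median log2 fold change was 0.49 against −0.02 over all genes tested. HEC had the highest mean for 10 of the 16 (20.9% of all genes) and 6C3 for 2 (19.5% of all genes). Of the 16, 1 gene, Cilp, was lower in 6C3 than in HEC (0.0102% of all genes were). That call was lost under 6 of 18 alternatives, among them leaving out 6C3 replicate 1. The 7 were Prg4, Gdf5, Erg, Clic5, Cilp, Htra4 and Vit. Like the lists below, this list was chosen with earlier results of these data known, so a larger share may be built in. It holds the marker Prg4 and the ranked genes Clic5 and Htra4. Vit, an extracellular matrix protein with von Willebrand factor domains, stood at 485 and 551 CPM in 6C3, 759 and 892 CPM in HEC and 15.1 to 31.96 CPM in the Thy-positive libraries (log2 fold change 3.19 ± 0.16, edgeR, adjusted p = 2.9e-07). Gdf5, a ligand that marks the forming joint, stood at 28.8 and 42.2 CPM in 6C3, 53.1 and 57.1 CPM in HEC and 4.62 to 8.24 CPM in the Thy-positive libraries. Erg, a transcription factor of articular cartilage and of endothelium, stood at 52.8 and 44.9 CPM in 6C3, 62.6 and 62.2 CPM in HEC and 7.67 to 15.4 CPM in the Thy-positive libraries. For each of the 3 genes the 6C3 and HEC libraries lay above all 6 Thy-positive ones and both HEC libraries above 6C3, although none of these differences from HEC passed the threshold (adjusted p = 0.34, 0.40 and 0.68). Has1, a hyaluronan synthase, was not called, at 593 and 614 CPM in 6C3 and 1419 and 1332 CPM in THY, its highest population.

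Of 18 listed cartilage matrix and Sox genes tested, 9 were higher in 6C3 than in the mean of the other 4 populations (3.88% of all genes were) and none was lower, with a median log2 fold change of 0.91, and 12 were higher than in the mean of PCP, THY and BLSP (6.67% of all genes were called in that direction). HEC had the highest mean for 14 of the 18 (20.9% of all genes). In edgeR none of the 18 passed the threshold between 6C3 and HEC, which 0.148% of all genes passed. DESeq2 called none of the 18 either. Under an unadjusted p below 0.05 with a log2 fold change beyond 0.5, 3 of the 18 were lower in 6C3 than in HEC (edgeR). By that rule 825 of all 19604 genes were lower. With no filter on low counts 1 was lower at the adjusted threshold, as were 200 of all 34854 genes. Col2a1, the main collagen of cartilage, stood at 34946 and 75574 CPM in 6C3, 66683 and 87224 CPM in HEC and 4232 to 16359 CPM in the Thy-positive libraries (log2 fold change 1.81 ± 0.21, edgeR, adjusted p = 0.00019). Replicate 1, the lower 6C3 library, lay between HEC and the Thy-positive libraries, and replicate 2 lay between the 2 HEC libraries. Col9a1, a collagen on the surface of the type II fibrils, stood at 3083 and 4882 CPM in 6C3 and 377 to 861 CPM in the Thy-positive libraries. Chad, a leucine-rich protein that binds chondrocytes, stood at 3178 and 4970.2 CPM in 6C3, 3346 and 3809.5 CPM in HEC and 1011 to 1462 CPM in the Thy-positive libraries. Sox5 and Sox9, transcription factors that drive cartilage genes, stood at 136 and 139.7 CPM and 4123 and 5689.8 CPM in 6C3 and at 36.7 to 57.1 CPM and 1521 to 2276 CPM in the Thy-positive libraries. Comp, Col9a2, Col11a2 and Hapln1 were the other 4 of the 9. The summed level of the list was 53312 to 105370 CPM in the 2 libraries of 6C3, 94470.2 to 119271 CPM in HEC and 11046 to 26835 CPM in the Thy-positive libraries. In these sorted bulk samples fewer cells of a type and less RNA per cell cannot be told apart. No gene of the hypertrophic cartilage list was higher in 6C3, and 1 of 10, Runx3, was lower (2.76% of all genes were). Runx3 stood at 2.77 and 2.94 CPM in 6C3 and 1.17 to 26.1 CPM elsewhere (edgeR, adjusted p = 0.015). Col10a1, the defining collagen of hypertrophic chondrocytes, was at 0.382 and 0.605 CPM in 6C3 and 13.2 and 9.93 CPM in PCP.

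**Figure D4:**
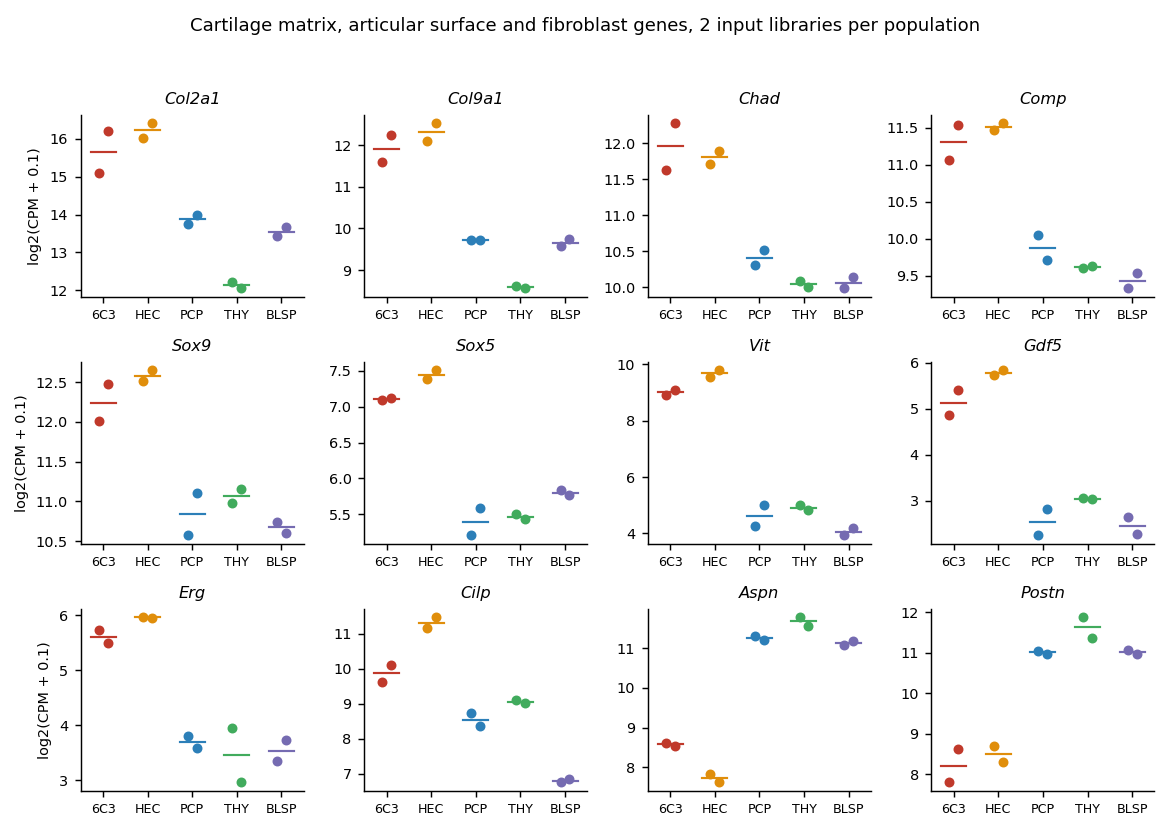
Level as log2(CPM + 0.1) in each of 2 input libraries (points; line, mean of the 2 log values) of the 5 populations for 6 cartilage genes (Col2a1 to Sox5), 4 genes of the joint surface (Vit to Cilp) and 2 fibroblast genes (Aspn, Postn). 6C3 lies with HEC and apart from PCP, THY and BLSP for Vit, Gdf5, Erg, Aspn and Postn, and the 2 6C3 libraries spread widely for Col2a1.

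Of 19 listed genes of perichondrial and loose connective fibroblasts, 8 were lower in 6C3 than in the mean of the other 4 populations (2.76% of all genes were), 11 did not pass the test and none was higher, with a median log2 fold change of −0.70. Aspn, a small leucine-rich proteoglycan, stood at 391 and 371 CPM in 6C3, 226 and 196 CPM in HEC and 2159 to 3532 CPM in the Thy-positive libraries (log2 fold change −1.87 ± 0.17, edgeR, adjusted p = 3.3e-05). Pi16, a marker of adventitial fibroblasts, stood at 1.75 and 1.84 CPM in 6C3, 1.71 and 1.17 CPM in HEC and 25.6 to 92.5 CPM in the Thy-positive libraries. Postn, a matrix protein of periosteum and perichondrium, stood at 223 and 398 CPM in 6C3, 418 and 319 CPM in HEC and 2013 to 3781 CPM in the Thy-positive libraries. Mfap5, a protein of elastic microfibrils, stood at 91.9 and 78.1 CPM in 6C3, 46.7 and 30.5 CPM in HEC and 232 to 1563 CPM in the Thy-positive libraries. For all 4 genes 6C3 and HEC were low together, and the difference between 6C3 and HEC did not pass the threshold (adjusted p of 0.12 for Aspn and 0.78 for Postn). Lum, Prrx1, Cd34 and Col12a1 were the other 4, of which Cd34 lost its call under 9 and Col12a1 under 10 of 18 alternatives, in both cases also without 6C3 replicate 1. Among 12 tendon and ligament genes, 3 were lower in 6C3 (2.76% of all genes were), namely Chodl, Tnmd and Thbs4, and none was higher. Tnmd, a membrane protein of tendon cells, stood at 352 and 632 CPM in 6C3 and 373 to 2069.5 CPM elsewhere, and none of the 3 calls held without 6C3 replicate 1.

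Of 18 listed osteoblast genes, 3 were higher in 6C3 (Col1a1, Dmp1 and Smpd3) and 3 were lower (Runx2, Alpl and Bglap), against 3.88% and 2.76% of all genes. The median log2 fold change was 0.03. Without 6C3 replicate 1 the calls of Dmp1, Runx2 and Bglap were lost, and Dmp1 lost its call under 7 of 18 alternatives in all. Col1a1, the main collagen of bone and of fibrous tissue, stood at 149309 and 132984 CPM in 6C3 and 68268 to 99629 CPM elsewhere, and both 6C3 libraries were above all others (log2 fold change 0.75 ± 0.15, edgeR, adjusted p = 0.0077). Runx2, the transcription factor that commits cells to bone, stood at 15.7 and 24.5 CPM in 6C3, 12.8 and 17.03 CPM in HEC and 35.5 to 94.8 CPM in the Thy-positive libraries. Alpl, the phosphatase of mineralizing cells, stood at 49.1 and 76.7 CPM in 6C3, 38.8 and 53.8 CPM in HEC and 83.2 to 417 CPM in the Thy-positive libraries. Smpd3, a sphingomyelinase of cartilage and bone, stood at 159 and 456 CPM in 6C3, 225 and 308 CPM in HEC and 23.4 to 159.8 CPM in the Thy-positive libraries. For Runx2 and Alpl both 6C3 libraries lay below all Thy-positive ones and near HEC.

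Of 23 genes of the marrow stroma and niche factors, 1 was higher in 6C3 (Nes) and 2 were lower (Ptn and Il34), against 3.88% and 2.76% of all genes. The median log2 fold change was 0.05. Ptn, a heparin-binding growth factor of niche stroma, stood at 310.3 and 245 CPM in 6C3, 205 and 185 CPM in HEC and 732 to 966 CPM in the Thy-positive libraries (log2 fold change −1.09 ± 0.17, edgeR, adjusted p = 0.0016). The calls of Il34 and Nes were lost under 13 and 10 of 18 alternatives. The niche genes Lepr and Adipoq were at 8.84 and 12.6 CPM and 4.39 and 5.10 CPM in 6C3 and were highest in PCP, at 47.5 and 22.7 CPM and 26.5 and 12.8 CPM. Kitl, the ligand of the Kit receptor, was at 31.6 and 30.7 CPM in 6C3, 16.2 and 13.7 CPM in HEC and 47.1 to 142 CPM in the Thy-positive libraries. Il7, the cytokine of early B cells, was at 3.21 and 3.74 CPM in 6C3 and 1.83 to 7.51 CPM elsewhere, which did not pass the threshold (adjusted p = 0.94). The 2 6C3 libraries parted widely for 2 transcripts of this list: Ebf1 stood at 255 and 69.3 CPM in replicates 1 and 2, and Jag1 at 128 and 40.2 CPM.

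In the BMP family 4 of 21 genes were higher in 6C3 (3.88% of all genes were) and 1 was lower (2.76% of all genes). The median log2 fold change was −0.31. The ligands among the 4 were Gdf10, Bmp4 and Bmp7, and the receptor was Bmpr1b, described above. The Bmp7 call was lost under 7 of 18 alternatives, and that of Bmpr1b without 6C3 replicate 1. Gdf10 stood at 215 and 257 CPM in 6C3, 255 and 289.7 CPM in HEC and 46.1 to 87.3 CPM in the Thy-positive libraries (log2 fold change 1.44 ± 0.15, edgeR, adjusted p = 9.6e-05). Bmp4 stood at 120.4 and 119 CPM in 6C3, 95.8 and 104 CPM in HEC and 27.1 to 86.3 CPM in the Thy-positive libraries. Fst, the activin antagonist follistatin, was the lower gene, at 15.3 and 16.5 CPM in 6C3, 11.03 and 19.04 CPM in HEC and 50.9 to 92.6 CPM in the Thy-positive libraries. The targets Id1, Id2 and Id3 were at 27.2 and 80.7, 66.1 and 92.1 and 151 and 189 CPM in 6C3 and did not pass the threshold (adjusted p = 0.50, 0.36 and 0.063).

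In the Wnt family 2 of 19 genes were higher in 6C3 (3.88% of all genes were) and 5 were lower (2.76% of all genes). The median log2 fold change was −0.37. Both higher genes are secreted antagonists. Wif1, which binds Wnt proteins, stood at 3814 and 3679 CPM in 6C3, 2928 and 3765 CPM in HEC and 627 to 1003 CPM in the Thy-positive libraries (log2 fold change 1.77 ± 0.14, edgeR, adjusted p = 1.5e-05). Frzb, a secreted frizzled-related protein of cartilage, stood at 65.6 and 82.5 CPM in 6C3, 61.9 and 70.03 CPM in HEC and 8.89 to 48.4 CPM in the Thy-positive libraries. The lower genes were the ligand Wnt5a, the antagonists Sfrp1, Sfrp2 and Sfrp4 and the Wnt enhancer Rspo2. The calls of Sfrp2 and Rspo2 were lost without 6C3 replicate 1, and that of Sfrp4 without replicate 2. Wnt5a stood at 6.04 and 8.38 CPM in 6C3, 6.59 and 5.67 CPM in HEC and 36.6 to 65.3 CPM in the Thy-positive libraries (log2 fold change −2.08 ± 0.20, edgeR, adjusted p = 5.4e-05). Sfrp4 was also among the genes higher in 6C3 than in HEC, at 28.8 and 17.9 CPM in 6C3 and 5.17 and 6.09 CPM in HEC (edgeR, adjusted p = 0.034). The pathway targets Axin2 and Lef1 were at 2.54 and 2.99 CPM and 16.95 and 19.95 CPM in 6C3 and did not pass the threshold.

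Both 6C3 libraries lay below all 8 others for 168 of the 541 lower genes, against 3.64% of all genes tested. Here too the calls used the same libraries, so a larger share among called genes is built in. Of the 8 with the widest gap and a mean of at least 5 CPM in the other libraries, 7 are described here, namely Col28a1, Tie1, Mag, Zfp462, Chl1, Sema5b and Gatm. Lower in 6C3 than in each of the other 4 populations was 1 gene (0.0051% of genes tested; 184 genes by an unadjusted p below 0.05 and a log2 fold change beyond 0.5, and 20 with DESeq2). Mag, a glial membrane protein, had 1 count in 6C3 and was at 0.130 to 65.5 CPM elsewhere. Gatm, an enzyme of creatine synthesis, was at 0.318 and 0.115 CPM in 6C3 and 0.570 to 159 CPM elsewhere. Col28a1, a collagen of peripheral nerve, stood at 0.286 and 0.288 CPM in 6C3 and 41.7 and 42.8 CPM in BLSP. For Col28a1, Mag, Chl1 and Gatm the highest libraries were those of BLSP and HEC was the nearest population to 6C3. The nuclear zinc finger gene Zfp462 and the semaphorin Sema5b were lower by less, at 2.16 and 1.93 CPM and 1.46 and 1.84 CPM in 6C3 against 4.08 to 8.02 CPM and 3.13 to 8.61 CPM elsewhere.

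Markers of other cell types were read in the same libraries. Among Schwann and neural genes, Mbp stood at 1.81 and 1.35 CPM in 6C3, 2.44 and 2.88 CPM in HEC and 722 and 702 CPM in BLSP, its highest population (log2 fold change −4.73 ± 0.35, edgeR, adjusted p = 6.8e-06). Sox10 and Fabp7 were also lower in 6C3, calls lost under 3 of 18 alternatives each. Both were lost without 6C3 replicate 1, and that of Fabp7 also without replicate 2. S100b, which cartilage also expresses, was higher, a call lost under 7 of 18 alternatives. Of 12 endothelial genes 6 were lower in 6C3 (2.76% of all genes were) and 3 were higher (3.88% of all genes). The 12 genes summed to 205 to 218 CPM in 6C3 and 58.1 to 429 CPM elsewhere, where PCP was highest. Eng, Flt1 and Plvap made up most of that sum in 6C3 and were the 3 higher genes (Plvap lost its call under 8 of 18 alternatives). Eng encodes the sort antigen CD105, so its call and its part of the sum follow the CD105 gate. Tek, among the 6 lower genes, encodes the sort antigen Tie2. The defining markers were near 0 in both 6C3 libraries: Cdh5 was at 0 and 0.115 CPM, Kdr at 0.191 and 0.0576 CPM, Tie1 at 0 and 0.115 CPM and Pecam1 at 0.986 and 1.38 CPM. Of 12 pericyte and smooth muscle genes 5 were lower in 6C3 (2.76% of all genes were), namely Rgs5, Mcam, Kcnj8, Abcc9 and Notch3, and none was higher. Kcnj8, a potassium channel subunit that defines pericytes, stood at 0.700 and 1.44 CPM in 6C3, 3.34 and 2.01 CPM in HEC and 5.71 to 26.7 CPM in the Thy-positive libraries. The list summed to 1049.6 to 1131 CPM in 6C3, the lowest of the 5 populations, and to 2132 to 3536 CPM in PCP.

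Few blood and muscle markers passed the test, by which 3.88% of all genes were higher and 2.76% lower in 6C3. None of 19 myeloid and lymphoid genes, 9 erythroid genes tested or 5 megakaryocyte genes tested passed the threshold against the mean of the other 4 (edgeR; at an unadjusted p below 0.05, 2 higher and 4 lower, 0 higher and 1 lower, and 0; DESeq2 called 1 myeloid and lymphoid gene lower). The myeloid and lymphoid genes summed to 16.8 to 24.5 CPM in 6C3 and 19.0 to 42.5 CPM elsewhere, and the erythroid genes to 19.4 to 72.1 CPM in 6C3 and 27.9 to 152 CPM elsewhere. Of 7 osteoclast genes tested, Acp5 and Nfatc1 were higher in 6C3 and Ctsk was lower, while Atp6v0d2 had no count in 6C3 and Mmp9 was at 3.98 and 11.9 CPM. Of 9 skeletal muscle genes tested, Myog was lower in 6C3, with no count there and at most 2.88 CPM elsewhere. The part of such cells in the differences between populations was not tested.

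**Figure D5:**
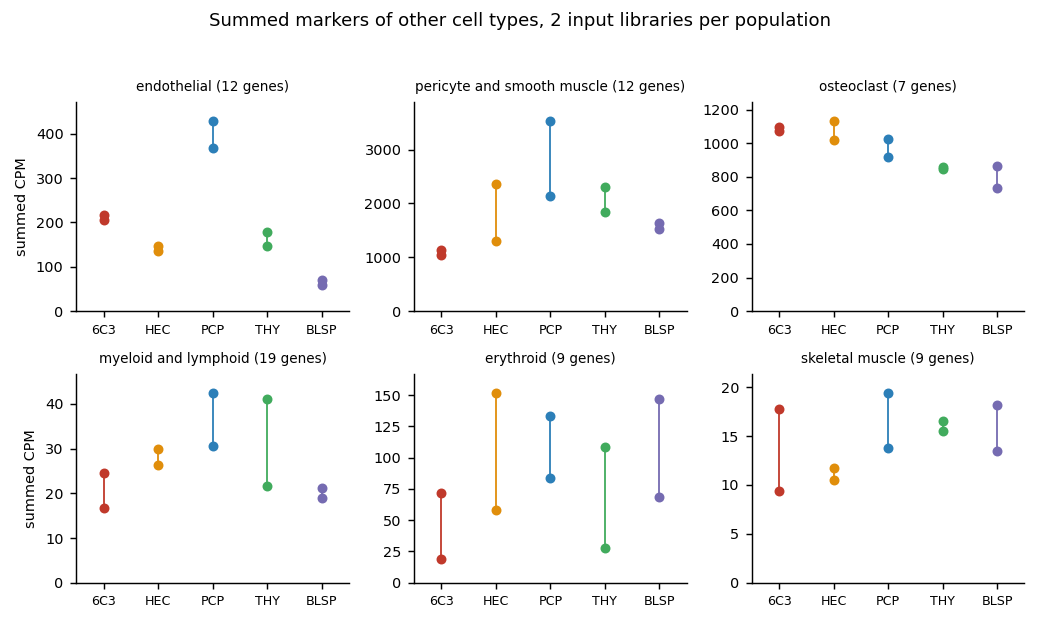
Summed CPM of the tested marker genes of 6 other cell types in the 2 input libraries (points joined by a line) of each population, with each vertical axis starting at 0. The endothelial sum, which includes Eng, the gene of the sort antigen CD105, is highest in PCP (368 to 429 CPM). The pericyte and smooth muscle sum is lowest in 6C3 (1049.6 to 1131 CPM).

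None of 15 cycling genes passed the edgeR threshold against the mean of the other 4, which 6.64% of all genes passed. At an unadjusted p below 0.05 in edgeR 3 were higher, and DESeq2 called 1 higher. The median log2 fold change of the 15 was 0.10 against that mean and 0.74 against HEC. Mki67, present in dividing cells, stood at 22.9 and 25.6 CPM in 6C3 and 17.8 to 47.9 CPM elsewhere. Of 15 immediate early and stress genes, Jun was lower in 6C3 (−0.74 ± 0.21, edgeR, adjusted p = 0.049) and none was higher, against 2.76% and 3.88% of all genes. The Jun call was lost under 8 of 18 alternatives, among them leaving out 6C3 replicate 1. The libraries of 6C3 parted here too: Ier3 stood at 177 and 914 CPM and Junb at 3283 and 1545 CPM in replicates 1 and 2. Of 14 hypoxia and glycolysis genes, 1 was higher in 6C3, Ndufa4l2 (3.88% of all genes were), and none was lower (2.76% of all genes). Ndufa4l2 stood at 455 and 448 CPM in 6C3, 602 and 531 CPM in HEC and 184 to 391 CPM in the Thy-positive libraries. Its call was lost under 12 of 18 alternatives. HEC had the highest mean for 11 of the 14 (20.9% of all genes).

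The IP libraries of the same populations, prepared from RNA pulled down with an m6A antibody, were not used to choose these genes, although the same sorted cells were split between the 2 preparations. For 8 of the 14 genes named as higher, both 6C3 IP libraries lay above all 8 other IP libraries, against 1.68% of all genes measured there. Rab37 stood at 17.7 and 17.4 CPM in the IP libraries of 6C3 and 0 to 10.5 CPM in the others, Tspan15 at 39.4 and 39.96 CPM and 5.78 to 14.9 CPM, Htra4 at 55.5 and 44.5 CPM and 1.70 to 18.1 CPM, and Col22a1 at 43.3 and 38.6 CPM and 7.65 to 24.1 CPM. For Prkcb, Bmpr1b, Mbnl3, Map7, Ccdc85c and Acp5 the IP libraries of 6C3 overlapped those of other populations. Of the 7 genes described as lower, only Gatm was below all others in IP, against 1.46% of all genes measured there. Prg4 stood at 7827 and 9611 CPM in the IP libraries of 6C3 and 15419.6 and 15392 CPM in those of HEC, the same order as in the input.

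The stem and progenitor populations SSC, pre-BCSP and BCSP lie upstream in the scheme and were scaled together with the 10 libraries here. For 9 of the 14 higher genes both 6C3 input libraries lay above all 6 upstream ones, against 19.4% of all genes. The 14 were chosen for high values in these same 6C3 libraries, so a larger share is built in. Enpep stood at 44.3 and 41.5 CPM in 6C3 and 2.15 to 5.43 CPM in the 6 upstream libraries, Rab37 at 80.7 and 57.1 CPM and 0 to 18.6 CPM, and Tspan15 at 82.9 and 98.8 CPM and 0.471 to 28.9 CPM. Bpifb1 overlapped, at 83.1 and 46.6 CPM in 6C3 and 60.9 to 189 CPM upstream, as did Calb2, Tmem117, Mbnl3 and Ccdc85c. Prg4 was at 1398 and 3504 CPM in 6C3 and 1186 to 3152 CPM upstream, and the groups overlapped. None of the 7 genes described as lower was below all 6 upstream libraries, against 16.7% of all genes.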

How the data were processed

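Input RNA of sorted cells was amplified by a Smart-seq2 based protocol, fragmented with Tn5 and sequenced in pairs by the authors, a preparation that keeps no strand. Per the labels and the study's methods, reads were trimmed with fastp 0.20.1, aligned to GRCm38 with HISAT2 2.2.1 and counted per gene with featureCounts 2.0.1, and the deposited values are raw counts per gene. Of 46959 entries, 128 named by the dates 1-Mar and 2-Mar were left out (at most 0.390% of a library's counts). From the counts of the 10 libraries, genes were filtered (filterByExpr by population), scaled by TMM and tested with edgeR 4.0.16 (quasi-likelihood F test, 1 mean per population, 5 residual degrees of freedom), with Benjamini-Hochberg adjustment over 19604 genes and a threshold of 0.05. SE is the log2 fold change over the square root of F. All comparisons share the 6C3 libraries. DESeq2 1.42.0, other scalings and filters, a replicate block and leaving out each library were alternatives. Replicates are separate labelled samples which the study calls independent experiments; p-values measure the spread between them. Replicate numbers were not used to pair the samples in the main fit, since the labels tie no number to a litter or sort day. The deviations of same-numbered libraries correlated at −0.20 to 0.11, which cannot exclude a shared litter or sort day. The authors' own tables of fold changes and p-values were not used. Members and gene lists were chosen with earlier results of these data known. Results for some ranked or listed genes are not reported here. Otherwise, the genes named are the 14 higher and 8 lower with the widest gap between the 6C3 libraries and all others, the 5 with the widest gap from HEC in each direction, the sort antigens, up to 4 called members per list and the defining markers of other cell types; further members are named for their role in a list and were chosen after their values were seen. Gene IDs and positions are from GENCODE vM21 (35 of the named genes looked up and matched) and promoters from RefSeq on GRCm38.p6. Intervals and floors cover counting error only.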

Additional observations from a re-analysis of the deposited data

How the results depend on the processing

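The 94 genes called against the mean of the other 4 populations that are sort antigens, list members or named genes kept their direction under all 18 alternatives. Of their calls, 66 held without 6C3 replicate 1, 83 without 6C3 replicate 2, 81 to 94 without 1 library of another population, 78 with all 16 libraries in the fit, 87 with the replicate block, 87 with library size alone, 93 with no filter and 94 under each of DESeq2, its size factors and the count filter. With the 8 other libraries as 1 group and no population term, 0 genes were higher and 0 lower (952 and 1377 at an unadjusted p below 0.05, edgeR), with Enpep at 1.29 (adjusted p = 0.59) and Prg4 at 0.39 (adjusted p = 0.94). This fit adds the differences among the 4 populations to the error.

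Scaled by library size alone, 421 genes were higher and 1013 lower against the mean of 4, which reversed the balance of the main fit (760 and 541), and 1 was higher than in each population. DESeq2 gave 1020 higher and 1055 lower against the mean of 4, 221 higher and 74 lower against HEC, 2354 against THY, 13 higher and 20 lower than in each, and Prg4 at −1.53 against HEC (adjusted p = 0.00078). With no filter on low counts (34854 genes), edgeR gave 1169 higher and 1028 lower against the mean, 450 higher and 200 lower against HEC, 2396 against THY, 95 higher and 61 lower than in each, and Prg4 against HEC at −1.51 (adjusted p = 1.7e-08). With all 16 wild-type input libraries in the fit there were 297 lower against the mean, 2 higher and 0 lower against HEC (954 and 707 at an unadjusted p below 0.05, edgeR; 221 and 74 called by DESeq2 on the 10 libraries), 1162 against PCP, and 0 higher and 0 lower than in each. The study's rule, an unadjusted p below 0.05 and a log2 fold change beyond 0.5, gave 1690 higher and 1703 lower against the mean, 1215 higher and 825 lower against HEC, 4165 against PCP, 4168 against THY, 4278 against BLSP, 4413 against the Thy-positive mean, 139 higher and 184 lower than in each, and called Prg4 against HEC at −1.51. The cause of these moves was not tested.

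Leaving out 1 library gave 454 to 1237 genes higher and 274 to 1318 lower against the mean, the lowest without 6C3 replicate 1 and the highest without 6C3 replicate 2. Against HEC it gave 1 (without HEC replicate 2) to 720 higher and 0 to 680 lower. It gave 1182 to 2543 against PCP, 653 (without THY replicate 1) to 2784 against THY, 806 (without BLSP replicate 2) to 2780 against BLSP, 1550 to 3303 against the Thy-positive mean, and 1 to 241 higher and 0 to 302 lower than in each. Enpep ranged from 2.12 to 2.34 against the mean, −0.39 to −0.29 against HEC and 2.94 to 3.23 against the Thy-positive mean, and Prg4 from 1.76 to 3.08, −2.31 to −0.99 and 3.12 to 4.44. A population left with 1 library was assumed to vary like the others, and more genes passed the filter (up to 21949).

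With the replicate number as a block, 664 genes were higher and 477 lower against the mean, and 21 higher and 2 lower against HEC. Col12a1, Il34, Jun, Ndufa4l2, Nes, Thbs4 and Tnmd were not called with the block, which moved no count by more than 1.5 times. The deviations of same-numbered libraries correlated at −0.20 to 0.11, which cannot exclude that the numbers were paired.

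With 2 libraries of 19795666 to 44046651 counts per population, the spread between the 2 libraries of 6C3 and the number of libraries limit these results.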
